A study of Mus musculus with 8 samples.

Results

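Mesenchymal state genes are transcription factors, co-activators and surface or matrix genes whose RNA marks a mesenchymal identity of neuroblastoma cells. The 10 genes described here are Prrx1, Twist1, Snai2, Fosl1, Fosl2, Yap1, Wwtr1, Cd44, Fn1 and Axl. All probe sets annotated to a single one of these genes were taken, which gave 26 of the 34958 single-gene probe sets on the array, and 10 of 18194 genes. RNA of 8 neuroblastomas was profiled on Affymetrix mouse expression arrays, with 1 array per tumor. Tumors 7 and 8 came from the superior cervical ganglion, which is part of the sympathetic chain in the neck (ganglion tumors), and Tumors 1 to 6 from the adrenal (adrenal tumors). All 8 arose in LSL-MYCN;Dbh-iCre mice, in which Cre recombinase under the Dbh promoter removes a stop cassette ahead of a human MYCN transgene at the ROSA26 locus, so that the transgene is switched on in noradrenergic cells. The mice were untreated, the age and sex of the animal behind each tumor are not given in the sources used here, and normal adrenals were not analysed here.

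Human neuroblastoma cell lines can hold either of a pair of identities. The adrenergic (noradrenergic) identity is kept by factors such as HAND2 and GATA3, and the mesenchymal identity by PRRX1, AP-1 factors and YAP and TAZ, the co-activators that bind TEAD factors when Hippo signaling is low. Mesenchymal cells resemble neural crest cells and express genes of the epithelial to mesenchymal transition, matrix proteins and surface receptors. The same genes are expressed by normal fibroblasts, pericytes, endothelial cells and macrophages. The arrays measured whole tumor tissue, in which fewer cells of a type and less RNA per cell cannot be told apart.

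Upstream sequences of 7 of the 10 members were matched by symbol in RefSeq (assembly GRCm38.p6), and Fosl1, Snai2 and Fn1 were not matched. The 250 bases before each start site were searched on both strands for GGAATG, the word bound by TEAD factors, TGANTCA, the AP-1 word, CACGTG, the E-box of MYC proteins, and CATATG, the E-box bound by TWIST proteins. GGAATG was present before the start of Axl, Prrx1, Wwtr1 and Yap1, and in 12.6% of the 32851 promoter windows of the genome. CACGTG was present before Yap1 and in 6.02% of windows, while TGANTCA (6.75%) and CATATG (3.46%) were in none of the 7 member windows. A window with GGAATG is shown for each of these 4 genes because YAP and TAZ, which act through TEAD factors, are themselves among the members. Wwtr1 has a second start site whose window overlaps the one shown and holds the same word 170 bases before that start. Capitals mark GGAATG and, before Yap1, also CACGTG. All 4 genes lie on the minus strand, and each sequence runs 5′ to 3′ toward the start site. The windows are chr7:25788734-25788983 for Axl, chr1:163313651-163313900 for Prrx1, chr3:57575911-57576160 for Wwtr1 and chr9:8004597-8004846 for Yap1.
Axl: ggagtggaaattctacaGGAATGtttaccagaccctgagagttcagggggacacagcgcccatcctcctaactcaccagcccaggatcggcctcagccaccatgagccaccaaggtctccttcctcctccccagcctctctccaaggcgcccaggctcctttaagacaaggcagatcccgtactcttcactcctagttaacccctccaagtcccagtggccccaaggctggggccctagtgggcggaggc
Prrx1: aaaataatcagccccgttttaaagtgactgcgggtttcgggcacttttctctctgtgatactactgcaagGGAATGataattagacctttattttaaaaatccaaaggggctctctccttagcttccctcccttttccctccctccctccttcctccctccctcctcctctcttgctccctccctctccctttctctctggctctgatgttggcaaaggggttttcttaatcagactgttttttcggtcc
Wwtr1: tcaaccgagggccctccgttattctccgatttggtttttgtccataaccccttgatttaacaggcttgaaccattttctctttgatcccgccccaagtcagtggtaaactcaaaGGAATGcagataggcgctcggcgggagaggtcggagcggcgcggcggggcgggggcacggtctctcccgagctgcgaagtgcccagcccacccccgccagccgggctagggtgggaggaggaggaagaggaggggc
Yap1: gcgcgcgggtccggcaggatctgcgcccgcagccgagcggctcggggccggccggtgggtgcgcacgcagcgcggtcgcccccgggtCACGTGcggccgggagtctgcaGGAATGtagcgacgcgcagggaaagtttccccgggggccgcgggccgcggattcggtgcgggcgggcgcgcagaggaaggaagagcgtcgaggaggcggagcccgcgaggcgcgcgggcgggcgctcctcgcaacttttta
The word began 233 bases before the start site in Axl, 180 in Prrx1, 136 in Wwtr1 and 141 in Yap1, where CACGTG began 163 bases before it. A match describes letters only and is no measure of binding. The windows differed in their count of CG dinucleotides, with 44 in Yap1 and 18 in Wwtr1, against 5 in Axl and 4 in Prrx1.

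Before the members are described, some values of the arrays are needed. Values are log2 expression values as deposited, and a probe set was called detected in a tumor when it lay above the 95th percentile on that array of 84 probe sets for smell, pheromone and taste receptors, genes of sensory tissue. This limit was 6.71 to 7.21, and 43.1% to 51.7% of probe sets were detected per tumor. Tumor 7 stood apart by its markers, since the mean of 14 noradrenergic genes, each centred over the tumors, was -2.70 there, against 0.49 in Tumor 8 and 0.21 to 0.55 in the adrenal tumors. Tfap2b, Ddc and Slc6a2 had 7.00, 7.38 and 6.65 in Tumor 7 and 12.37 or more in all others, so that these markers of the labelled tumor type were low there, although Isl1 (13.48) was not. Gata3 was undetected in Tumor 7 (5.22, against 11.12 or more elsewhere), whereas Hand2 had 12.58 there, against 13.33 or more elsewhere. Tumor 6 held liver transcripts, with a hepatocyte list mean of 4.95 against -0.91 to -0.41 in the other adrenal tumors. The excess of the Gapdh 3′ over the Gapdh 5′ value, a measure of RNA integrity, was 5.51 in Tumor 1, against 0.47 to 1.57 elsewhere. P-values measure the spread between these tumors, since the sources do not say that each came from a separate mouse.

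The members differed widely in where they were found. Cd44 and Fn1 were detected in each of the 8 tumors, Fosl1 in none, and the remaining 7 in 4 to 7 tumors, whereas 54.6% of all genes were detected everywhere. Their levels also spread over the tumors. Since undetected values are background, ranges between the highest and the lowest tumor were also taken with undetected values set to the detection limit of their array. The median of this range was 1.94 over the 9 members detected in at least 1 tumor and 0.83 over the 12497 genes tested that were detected in at least 1 tumor, genes tested being those above log2 5 in at least 2 tumors. Fosl2 (3.27), Twist1 (3.17) and Fn1 (3.11) had the widest such ranges, wider than those of 97.8% to 98.2% of these genes, and Prrx1 (0.87) and Yap1 (1.03) the narrowest. The range of Twist1 over the values as deposited was 5.05, of which the lower part lay below the limit. Tumor 1 had 9 members detected and Tumors 7 and 8 had 8 each, whereas Tumor 5 had 4 and held the lowest value of 5 of the 10 members. Of these 5, Fn1 alone was detected in Tumor 5. These counts depend on the limits, which differed between arrays. For instance, Yap1 counted in Tumor 7 (6.79, limit 6.73) but not in Tumor 2 (6.78, limit 7.21).

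**Figure D1:**
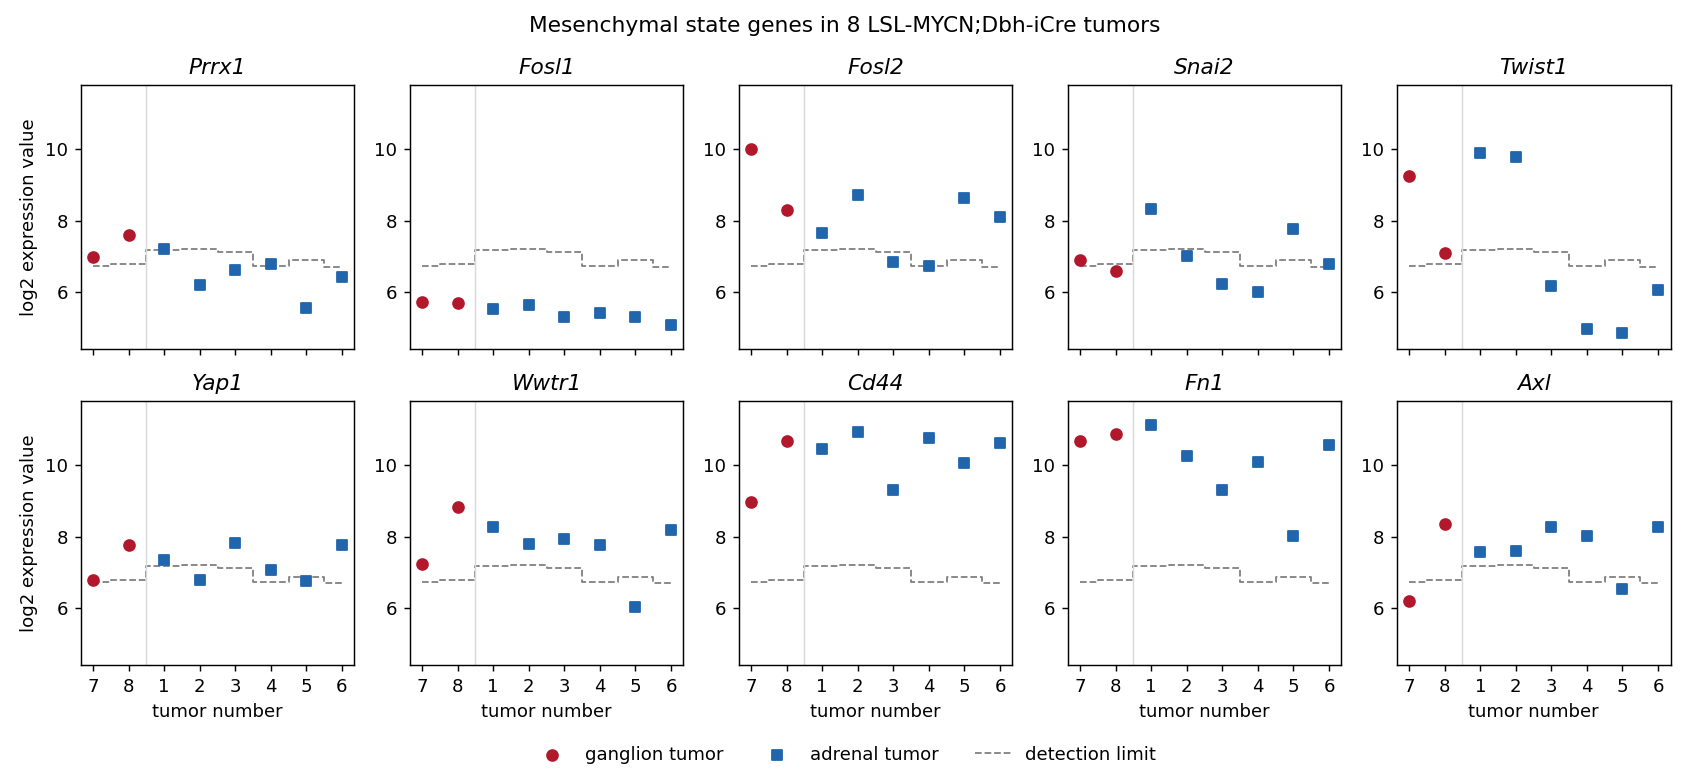
Log2 expression value (y axis, not starting at 0) of the highest-mean probe set of each member in every tumor (x axis), with ganglion tumors as circles and adrenal tumors as squares and a dashed line for the detection limit of each array. Twist1 sat at 9.23, 9.88 and 9.78 in Tumors 7, 1 and 2 and at 4.84 in Tumor 5, whereas Cd44 and Fn1 lay above the limit in all tumors.

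Among the transcription factors, Twist1, a basic helix-loop-helix factor of mesoderm and neural crest, was high in some tumors and near background in others. It had 9.23 in Tumor 7 and 7.10 in Tumor 8, and the adrenal tumors had a lowest value of 4.84 (Tumor 5), a median of 6.12 and a highest value of 9.88 (Tumor 1). Tumors 1 and 2 (9.78) were far above the remaining 4 adrenal tumors, which reached 6.18 at most and were below the detection limit. All tumors below the limit were adrenal, Tumor 8 lay between the high and the undetected tumors, and the groups overlapped. Twist1 averaged 8.17 ± 1.51 (SD, n = 2) in ganglion tumors and 6.95 ± 2.30 (SD, n = 6) in adrenal tumors, and the difference of 1.22 (SE 1.49) had an adjusted p of 0.952 in limma. It became 0.15 without Tumor 7 and 2.29 without Tumor 8. Only 1 probe set (1418733_at) represents this gene, so that no second probe set shows the pattern.

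Prrx1, a homeobox factor of limb and craniofacial mesenchyme that drives mesenchymal conversion of human neuroblastoma cell lines, was low throughout. Its values were 6.98 in Tumor 7 and 7.58 in Tumor 8, against a lowest value of 5.54 (Tumor 5), a median of 6.51 and a highest value of 7.21 (Tumor 1) in adrenal tumors. It was detected in both ganglion tumors and in Tumors 1 and 4, and the groups overlapped through Tumor 1. Of its 6 probe sets, 1425528_at alone was detected in any tumor. The means were 7.28 ± 0.43 (SD, n = 2) in ganglion tumors and 6.45 ± 0.56 (SD, n = 6) in adrenal tumors, a difference of 0.82 (SE 0.38, limma adjusted p = 0.903). The difference was 0.18 with the mean of all 6 probe sets and 0.52 without Tumor 8.

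Snai2, the zinc finger repressor Slug that marks migrating neural crest, had another order of tumors. Ganglion Tumors 7 and 8 had 6.89 and 6.59, whereas adrenal tumors had a lowest value of 5.98 (Tumor 4), a median of 6.89 and a highest value of 8.31 (Tumor 1). Tumor 5, lowest for several other members, was second highest with 7.77, and both ganglion values lay within the adrenal range. The second probe set of Snai2 (1418673_at) was undetected but ran with the first over the tumors (r = 0.86). The site difference was -0.27 (SE 0.57, limma adjusted p = 0.974). Without Tumor 1, the tumor with the largest Gapdh 3′ excess, it was -0.007.

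The pair of AP-1 members, which dimerise with JUN proteins, differed in detection. Fosl1 (FRA-1) lay at 5.72 and 5.68 in ganglion tumors and between 5.08 and 5.63 in adrenal tumors, below the detection limit on every array for both of its probe sets. Its values are thus background, and no site difference is given for it. Fosl2 (FRA-2) had 10.01 in Tumor 7 and 8.28 in Tumor 8, against a lowest value of 6.72 (Tumor 4), a median of 7.87 and a highest value of 8.71 (Tumor 2) in adrenal tumors. Tumor 7 was above all others, and Tumor 8 lay within the adrenal range. Fosl2 averaged 9.14 ± 1.22 (SD, n = 2) in ganglion tumors and 7.77 ± 0.87 (SD, n = 6) in adrenal tumors, and the difference of 1.38 (SE 0.64) had a limma adjusted p of 0.903. The difference became 0.51 without Tumor 7, 2.24 without Tumor 8 and 0.70 with the mean of both probe sets. Its range of 3.29 narrowed to 2.00 without Tumor 7. The other Fosl2 probe set (1422931_at) stayed between 6.68 and 7.02 and did not show the excess in Tumor 7 (6.77).

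The Hippo co-activators were mostly detected. Yap1 (YAP) had 6.79 in Tumor 7 and 7.78 in Tumor 8, and adrenal tumors ran from 6.77 (Tumor 5) to 7.82 (Tumor 3), with a median of 7.21. The groups overlapped fully, with a difference of 0.02 (SE 0.36, limma adjusted p = 0.998). The second Yap1 probe set (1416487_a_at) was undetected in all tumors and correlated with the first at r = 0.32. Wwtr1 (TAZ, the paralog of YAP) had 7.24 in Tumor 7 and 8.83 in Tumor 8, whereas adrenal tumors had a lowest value of 6.02 (Tumor 5), a median of 7.88 and a highest value of 8.26 (Tumor 1). Tumor 5 was the single tumor without detectable Wwtr1, and the other 5 adrenal tumors lay within 7.78 to 8.26. The undetected Wwtr1 probe sets 1417817_a_at and 1437155_a_at were also lowest in Tumor 5 (5.85 and 5.31) and correlated with the detected one (r = 0.87 and 0.88). The site difference of Wwtr1 was 0.36 (SE 0.61, limma adjusted p = 0.971). Without Tumor 5 the range of Wwtr1 was 1.59, against 2.80 over all tumors and 1.94 with Tumor 5 set to its detection limit. Its difference was 0.03 without Tumor 5.

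Surface and matrix members included both genes that were detected in all tumors. Cd44, the hyaluronan receptor, had 8.97 in Tumor 7 and 10.67 in Tumor 8, against a lowest value of 9.30 (Tumor 3), a median of 10.55 and a highest value of 10.94 (Tumor 2) in adrenal tumors. Tumors 7 and 3 were low, and Tumor 8 was among the high ones. A second probe set (1423760_at) was likewise lowest in Tumor 7 (8.64) and next lowest in Tumor 3 (9.02), and correlated with the first at r = 0.98. The mean was 9.82 ± 1.20 (SD, n = 2) in ganglion tumors and 10.36 ± 0.60 (SD, n = 6) in adrenal tumors (difference -0.54, SE 0.51, limma adjusted p = 0.938).

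Fn1, which encodes the matrix protein fibronectin, had 10.69 and 10.87 in ganglion tumors. Adrenal tumors ran from 8.02 in Tumor 5 to 11.13 in Tumor 1, with a median of 10.19, so that Tumors 1 and 5 differed 8.63-fold. Both ganglion tumors were in the upper part of the adrenal range. Fn1 averaged 10.78 ± 0.13 (SD, n = 2) in ganglion tumors and 9.90 ± 1.10 (SD, n = 6) in adrenal tumors (difference 0.88, SE 0.69, limma adjusted p = 0.915). The probe sets of Fn1 disagreed. 1437218_at had 7.73 in Tumor 7, where alone it was detected, 5.05 in Tumor 8, and 5.12 to 5.89 in adrenal tumors (r = 0.37 with 1426642_at). Without Tumor 5 the range of Fn1 was 1.82.

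Axl, a receptor tyrosine kinase activated by Gas6, was undetected in Tumor 7 (6.20) and had its highest value in Tumor 8 (8.35). The adrenal tumors had a lowest value of 6.54 (Tumor 5, undetected), a median of 7.82 and a highest value of 8.28 (Tumor 3). Thus the ganglion pair spanned the whole range of the gene. The second Axl probe set (1438621_x_at) was undetected in all tumors and did not follow the first (r = 0.09). The means were 7.28 ± 1.52 (SD, n = 2) in ganglion tumors and 7.72 ± 0.66 (SD, n = 6) in adrenal tumors (difference -0.44, SE 0.59, limma adjusted p = 0.953).

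The comparison by site asked whether the members differed between tumors of the ganglion and the adrenal. None of the 10 members was called by limma at an adjusted p under 0.05, and none had an unadjusted p under 0.05. Over all 16254 genes tested, 3 were called (0.0185%), and 761 had an unadjusted p under 0.05 (4.68%). The called genes Acta1, Clvs2 and Tnnt3 were all higher in ganglion tumors, but Clvs2 and Tnnt3 were below the detection limit in every tumor, and Acta1 and Tnnt3 encode skeletal muscle proteins. Of the 9 members detected in at least 1 tumor, 6 had a positive and 3 a negative difference, with a median of 0.36, the value of Wwtr1. Over all 10 members, detected or not, the median was 0.35, against -0.03 over all genes tested. Fosl1, undetected everywhere, was the only member whose groups did not overlap, compared with 4.42% of all genes tested. On the level of probe sets, 21 of the 26 were tested and none was called, with a median difference of 0.13. The absence of calls does not show that the sites were alike, since the standard errors reached 1.49 with 2 ganglion tumors. Without Tumor 7 the difference became 0.31 for Cd44 and 0.63 for Axl, and without Tumor 8 it became -0.43 for Wwtr1 and -0.47 for Yap1. The difference of Fn1 was 0.50 without Tumor 5.

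**Figure D2:**
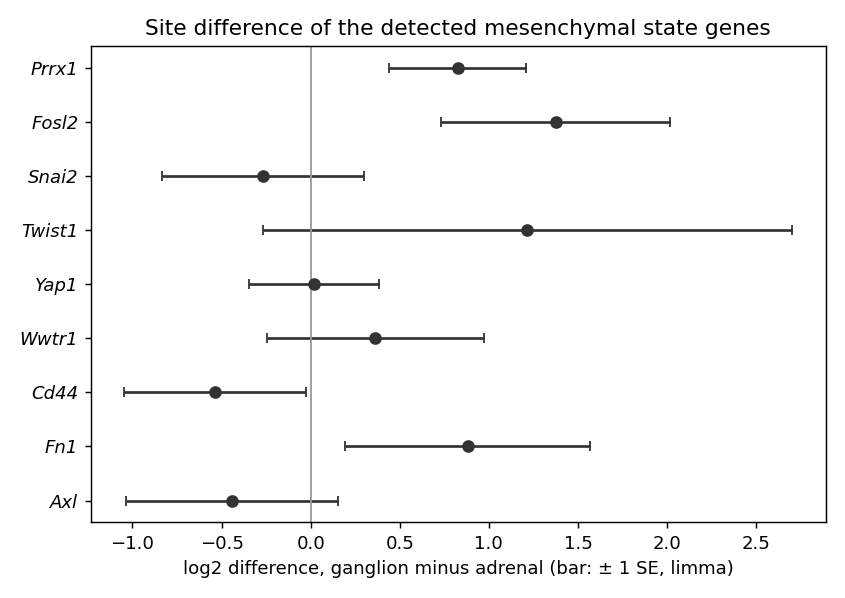
Difference between ganglion tumors (n = 2) and adrenal tumors (n = 6) in log2 units (x axis) for each of the 9 members detected in at least 1 tumor, with bars of 1 SE from limma. Differences ran from -0.54 for Cd44 to 1.38 for Fosl2, none passed the adjusted threshold, and without Tumor 7 Wwtr1 (1.16) and Prrx1 (1.13) exceeded Fosl2 (0.51).

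The members did not vary as a single block. Of the 45 pairs, 29 had a positive Pearson r over the 8 tumors, with a median of 0.24 and a span of -0.73 to 0.81. In exact two-sided permutation tests 7 pairs had an unadjusted p under 0.05 and none an adjusted p under 0.05 (lowest adjusted p = 0.224). Prrx1, Wwtr1 and Fn1 correlated with each other at r = 0.78 to 0.81, and Yap1, Wwtr1 and Axl at r = 0.71 to 0.81. The other members, Twist1, Snai2, Fosl1, Fosl2 and Cd44, stood outside these pairs, which were grouped by Pearson r alone. Twist1 and Fn1 had r = 0.64 (permutation p = 0.0778, adjusted p = 0.395, and rho = 0.74, permutation p = 0.0458), and 0.62 without Tumors 1 and 2. Fosl2 ran against Axl (r = -0.73, permutation p = 0.0410, adjusted p = 0.264, and rho = -0.52, permutation p = 0.197), with r = -0.49 without Tumors 4 and 7.

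Some of these relations were weaker with a few tumors left out. The pair Yap1 and Axl had r = 0.81 (permutation p = 0.0152, adjusted p = 0.224, and rho = 0.81, permutation p = 0.0218) and 0.73 without Tumors 3 and 8. The pair Wwtr1 and Axl (r = 0.78, permutation p = 0.0172, adjusted p = 0.224, and rho = 0.69, permutation p = 0.0694) kept r = 0.77 without Tumors 5 and 8. In contrast, Prrx1 and Wwtr1 had r = 0.78 over all tumors and -0.08 without Tumors 5 and 8, Wwtr1 and Fn1 had 0.79 and 0.098, and Prrx1 and Fn1 had 0.81 and 0.47. Their rho values were 0.60, 0.67 and 0.79 (permutation p = 0.132, 0.0831 and 0.0279). The relations of Wwtr1 with Prrx1 and with Fn1 were thus not seen without Tumors 5 and 8, and that of Prrx1 with Fn1 was weaker without them. The tumors left out were those farthest from the median of the first member. Leaving them out narrows its range, so a lower r does not show that the relation came from them.

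**Figure D3:**
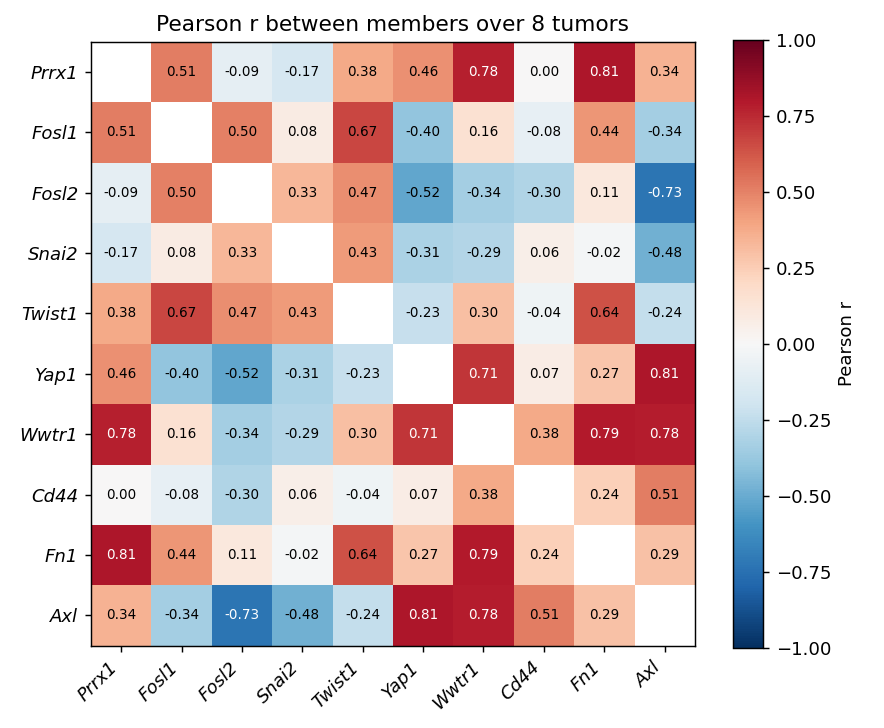
Pearson r of each pair of members over the 8 tumors, with both axes listing the 10 genes and color giving r. Wwtr1 had r of 0.71 to 0.79 with Prrx1, Yap1, Fn1 and Axl, whereas Fosl2 had -0.73 with Axl.

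To see which cell type markers moved with the members, each member was correlated with the mean of 3 marker lists, which gave 30 relations. These were the noradrenergic, fibroblast and macrophage lists, and relations with the other lists, such as endothelial and pericyte markers, were not tested. Wwtr1 alone passed the adjusted threshold, with 2 of the lists. It correlated with the mean of 12 fibroblast markers at r = 0.95 (permutation p = 0.00062, adjusted p = 0.0138; rho = 0.93, p = 0.00223, adjusted p = 0.0335) and at 0.72 without Tumors 5 and 8. With the mean of 12 macrophage markers it had r = 0.90 (permutation p = 0.000918, adjusted p = 0.0138; rho = 0.93, p = 0.00223, adjusted p = 0.0335) and 0.90 without Tumors 5 and 7. Tumor 5 had the lowest fibroblast mean (-1.36), with 9 of the 12 markers lowest there and 8 of the 12 detected there, and Tumor 8 the highest (0.83). For instance, Col3a1, a fibrillar collagen, had 9.11 in Tumor 5 and 11.65 or more elsewhere. The macrophage mean was also highest in Tumor 8 (0.45), and was lowest in Tumors 7 (-0.51) and 5 (-0.49). Whether the relations of Wwtr1 with the fibroblast and the macrophage list are separate was not tested. Within the 6 adrenal tumors r was 0.94 with fibroblast markers (exact permutation p = 0.0236) and 0.96 with macrophage markers (exact permutation p = 0.00556), which missed the adjusted threshold (adjusted p = 0.233 and 0.167). With single tumors left out of the 8, both relations missed it without Tumor 4, 5 or 8, and that with fibroblast markers also without Tumor 7 (adjusted p of 0.0575 to 0.110), while r was 0.85 or more.

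**Figure D4:**
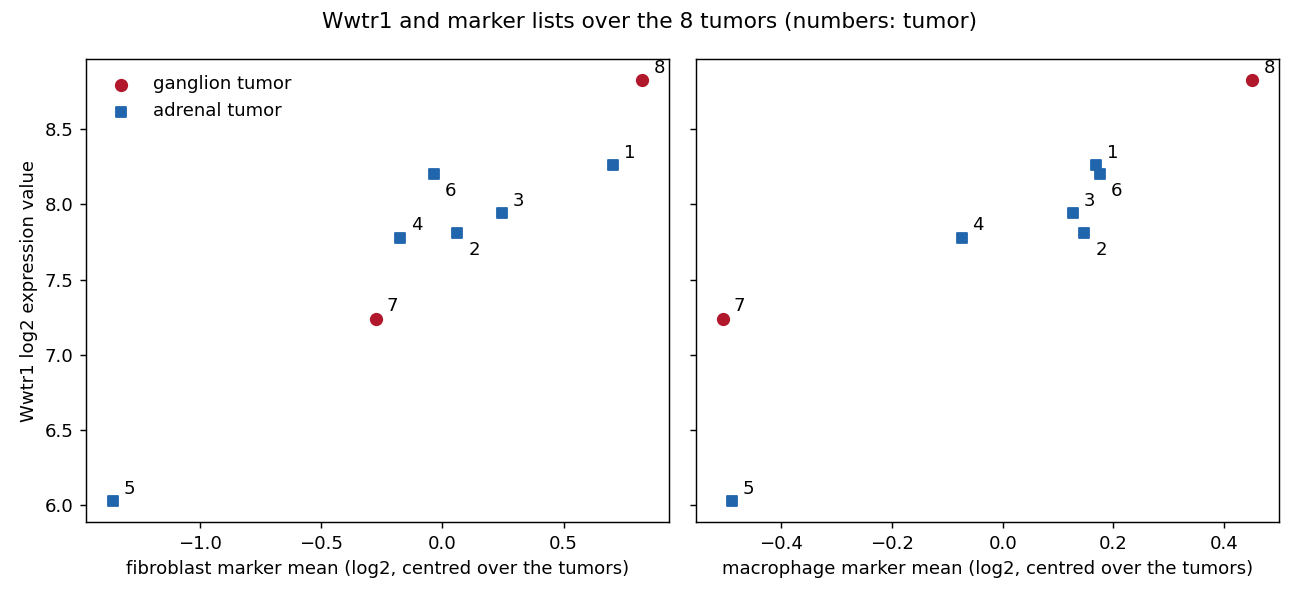
Log2 value of Wwtr1 (y axis) against the centred mean of fibroblast markers (left x axis) and of macrophage markers (right x axis), with 1 point per tumor and its number. Wwtr1 was lowest in Tumor 5, which had a fibroblast mean of -1.36, and highest in Tumor 8, which had 0.83.

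Other members moved with markers less clearly. Axl had r = 0.89 with the macrophage list (permutation p = 0.00957, adjusted p = 0.0690, and rho = 0.71, permutation p = 0.0576), which was 0.31 without Tumors 5 and 7. Prrx1 had r = 0.84 with the fibroblast list (permutation p = 0.0115, adjusted p = 0.0690, and rho = 0.60, permutation p = 0.132) and 0.35 without Tumors 5 and 8. Fn1 had r = 0.80 with it (permutation p = 0.0266, adjusted p = 0.133, and rho = 0.57, permutation p = 0.151) and 0.22 without the same tumors. Yap1 had r = 0.74 with the macrophage list (permutation p = 0.0394, adjusted p = 0.169, and rho = 0.60, permutation p = 0.132) and 0.50 without Tumors 5 and 7. Cd44 correlated positively with the noradrenergic list (r = 0.74, permutation p = 0.0110, adjusted p = 0.0690, and rho = 0.74, permutation p = 0.0458), and at 0.55 without Tumors 4 and 7. Tumor 7, in which 11 of 14 noradrenergic genes were lowest, had the lowest Cd44 and Axl and the highest Fosl2, while its mean over the members (0.13) lay within the span of the other tumors. The part of stromal cells in these levels was not tested.

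The genes whose pattern was most like that of the 4 members with the widest range over the deposited values were sought among 5624 genes with a range of at least 1, and are given as a description. Twist1 was matched by Nubpl (r = 0.98), Cenpx (0.97) and Saa3 (0.96). Nubpl lies on chromosome 12 like Twist1, and the others on chromosomes 11 and 7. Saa3, an acute phase protein gene, had 9.10 in Tumor 7, 7.14 in Tumor 8, 9.65 in Tumor 1, 8.93 in Tumor 2 and 6.83 to 7.39 in Tumors 3 to 6. Fosl2 was matched by Gm1976, Hoxd9 and Rgs7bp (r = 0.96 each). Fn1 ran with Ets1 and Mmp14 (0.98 each) and with Cdh5 (0.97), the endothelial cadherin. Wwtr1 ran with Igfbp7 (0.99), which had 9.32 in Tumor 5 and 12.64 in Tumor 8, and with Emp1 (0.98) and Plod1 (0.97).

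Lists of genes that act with the members were then described. Of 23 further transcription factors linked to the mesenchymal state, 21 had a named probe set, of which 10 were detected everywhere and 6 nowhere. None of the 18 tested was called, 12 were higher and 6 lower in ganglion tumors, and the median difference was 0.12. Id1, a BMP target, spread most among those detected, with 7.80 and 9.36 in ganglion tumors and 6.69 (Tumor 5) to 9.28 in adrenal tumors. Glis3, Maml2, Meox2, Six4, Tbx18 and Ifi204 were undetected. Of 9 other factors of the epithelial to mesenchymal transition, Snai1, Twist2, Prrx2 and Foxc2 were undetected, and Zeb1, Zeb2, Tcf3, Tcf4 and Snai3 were detected in all tumors. Zeb1 had 10.85 and 12.38 in ganglion tumors and 11.86 to 12.65 in adrenal tumors, so that Tumor 7 was lowest. With undetected values set to the limit, the ranges were 3.17 for Twist1, 1.80 for Zeb1 and 1.58 for Snai2, against 0.41 for Snai3 and 0.50 for Zeb2.

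The AP-1 family accompanied Fosl2 in part. All 10 genes were tested and none was called, 8 were higher and 2 lower in ganglion tumors, with a median of 0.32. Fos, the immediate early partner of JUN, had 12.13 and 9.23 in ganglion tumors and 7.15 to 9.67 in adrenal tumors (difference 2.45, limma adjusted p = 0.903). Junb was detected in Tumor 7 alone and Fosb in none. Immediate early and stress genes moved along, with a list mean of 0.94 in Tumor 7, 0.25 in Tumor 8, 0.67 in Tumor 2 and -0.54 to -0.21 in the other adrenal tumors. Fosl2 likewise had its highest values in Tumors 7 and 2, but its value in Tumor 5 (8.62) was close to that in Tumor 2 (8.71), while the list mean of Tumor 5 was -0.35, and the part of this response in its level was not tested.

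Genes of the Hippo pathway were broadly present. Of 17 genes, 15 were detected in every tumor, and Tead2 and Tead4 were undetected. Tead1, a DNA-binding partner of YAP and TAZ, had 10.53 and 10.99 in ganglion tumors and 10.21 to 11.61 in adrenal tumors. Stk4 (the kinase MST1), Sav1 and Taok1 ranged over less than 0.47 each. The median site difference was 0.0015, and none was called.

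Among YAP and TAZ target genes, none was called by site. Of 14 tested, 12 were higher and 2 lower in ganglion tumors, and the median difference was 0.61. An unadjusted limma p under 0.05 was found for 6 of the 14, against 4.68% of all genes tested. Among the 6 were Ankrd1 and F3, which were undetected in all tumors. Other lists also had many such genes, with 10 of 12 skeletal muscle and 7 of 14 noradrenergic genes. The same held for 5 of 12 immediate early and stress genes and 4 of 10 endothelial genes. Ccn2 (CTGF), a classical target, had 10.66 and 12.08 in ganglion tumors, against a lowest value of 8.22 (Tumor 5), a median of 9.45 and a highest value of 10.63 in adrenal tumors (difference 1.86, SE 0.68, limma adjusted p = 0.903). Ccn1 (CYR61) had 8.90 and 8.14 in ganglion tumors and 5.72 (Tumor 5) to 8.20 in adrenal tumors (difference 1.61, limma adjusted p = 0.903). Crim1 had 9.36 and 8.23 in ganglion tumors and 6.84 to 8.29 in adrenal tumors. Other markers moved in the same direction, since the endothelial mean was 0.30 and 0.64 in ganglion tumors and -0.70 to 0.16 in adrenal tumors, and the skeletal muscle mean was 1.12 and 0.60, against -0.51 to -0.09. The part of these cells in the difference was not tested.

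Partners of the surface and matrix members were present in part. Of 10 fibronectin receptor genes, Itgb1, Itgav, Itgb5 and Itga9 were detected in all tumors, and Itga5, Itgb3, Itga8 and Itgb6 in none. Itgb1, the common beta chain, had 10.05 and 10.73 in ganglion tumors and 7.45 to 10.68 in adrenal tumors, and the lowest value was in Tumor 1, the tumor with the highest Fn1 and the largest Gapdh 3′ excess. Itgav had 11.26 and 10.65 in ganglion tumors and 8.88 (Tumor 5) to 11.20 in adrenal tumors. Of 11 genes for CD44 ligands, hyaluronan enzymes and the ERM proteins that bind CD44, 7 were detected in all tumors, and the hyaluronan synthases Has2 and Has3 in none. Ezr (ezrin) had 10.91 and 9.37 in ganglion tumors and 8.21 to 9.77 in adrenal tumors. Gas6, the ligand of AXL, was detected in all tumors, with 8.71 and 9.44 in ganglion tumors and 8.83 to 9.81 in adrenal tumors. Of the related receptors, Mertk was detected in all tumors and Tyro3 in 2, Tumors 7 (7.37) and 2 (7.31). Thus Tumor 7, where Axl was undetected, had Tyro3 and Mertk (7.98) above the limit. No gene of these lists was called.

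Effector genes of the mesenchymal state followed Fn1 and Wwtr1 only in part in their low value in Tumor 5. Of 19 genes, 13 were detected in all tumors, and 10 were lowest in Tumor 5, which had a list mean of -0.84, against 0.05 in Tumor 7, 0.37 in Tumor 8 and -0.14 to 0.43 in the other adrenal tumors. Sparc, a matrix glycoprotein, had 10.80 and 12.19 in ganglion tumors and 8.82 (Tumor 5) to 12.05 in adrenal tumors. Cav1 (caveolin) had 9.16 and 9.83 in ganglion tumors and 6.71 (Tumor 5) to 9.48 in adrenal tumors. Cdh11 had 8.99 and 6.86 in ganglion tumors and 4.85 (Tumor 5) to 8.43 in adrenal tumors. Vim and Cdh2, also markers of this state, had 12.90 to 14.01 and 12.50 to 12.88 over the 8 tumors. They had 13.41 and 12.57 in Tumor 5 and were not lowest there. Lgals1 (14.20) and Mmp2 (10.14) were second highest in Tumor 5. In Tumor 5, 9 of 12 fibroblast, 6 of 10 pericyte and smooth muscle and 9 of 10 endothelial markers were lowest as well, whereas the noradrenergic mean was 0.45.

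**Figure D5:**
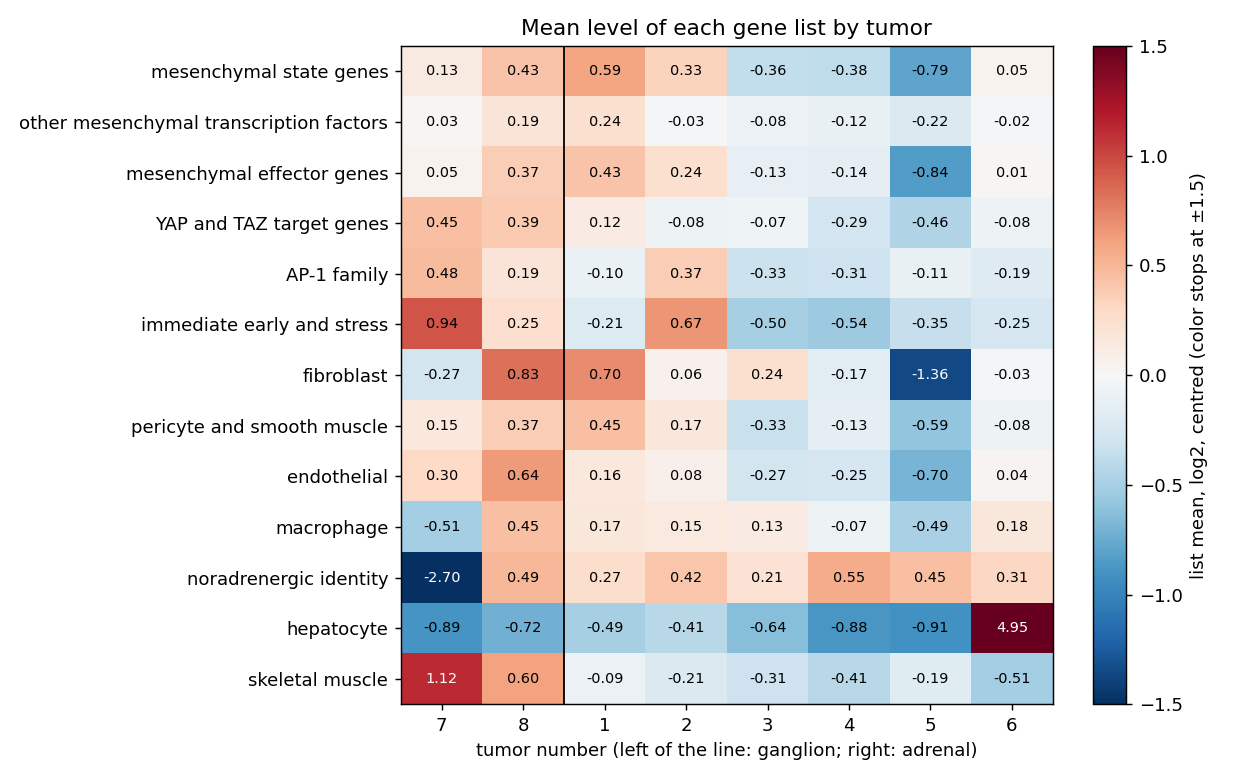
Mean level of each list by tumor (x axis), with each gene centred over the 8 tumors, in log2 units given by color and number. The members had their lowest mean in Tumor 5 (-0.79), where the effector (-0.84), fibroblast (-1.36), pericyte (-0.59) and endothelial (-0.70) means were also lowest. Their highest mean was in Tumor 1 (0.59), where Twist1 was 2.63 above its own mean. The median over the members was highest in Tumor 8 (0.48, against 0.37 in Tumor 1) and lowest in Tumor 5 (-0.78).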

How the data were processed

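The authors deposited log2 expression values of 45101 probe sets for each of 8 arrays, already corrected for background and normalized between arrays. RMA and Partek 6.6 are named in the processing notes of the submitters, but gcRMA in the Methods, and the values do not settle which was applied. No further normalization was applied, and no 2 arrays held identical values. Probe sets were named from the platform annotation, with symbols updated through the reference gene table, and 34958 had 1 gene, 932 several and 9211 none. Each gene took its probe set with the highest mean, as in the Methods. Different probe sets are not comparable in level, so no order of genes by level is given.

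Groups followed the tumor site in the labels. The site comparison used lmFit and eBayes of limma 3.58.1, run in R 4.3.3 (all 8 tumors, Benjamini-Hochberg over all genes tested, threshold 0.05, two-sided), and the step was tested on simulated data. Correlations were tested by exact permutation in Python 3.11.15 with scipy 1.17.1, numpy 2.4.6 and pandas 2.3.3, and plots drawn with matplotlib 3.10.9. List means are averages of genes centred over the tumors.

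Members and lists were chosen with earlier results of these data known. Named are all members, and in each other list called genes, up to 3 genes with the widest and 3 with the narrowest range, undetected genes, and for 4 members the 3 most similar genes. Clvs2, Lgals1, Mmp2, Gata3 and Hand2 were named after their values were seen. A few listed genes lacked a named probe set and are not reported. Alternatives changed the normalization, filter, probe set, test or detection limit, or left out 1 tumor at a time. The ranges of the members with a tumor left out, and with undetected values set to the limit, were added after seeing the data. Array number limits the precision.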

Additional observations from a re-analysis of the deposited data

Results flagged for a closer look

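Among the 6 adrenal tumors, 48 measures (26 member probe sets and 22 list means) were examined for a tumor far from the others, defined as a gap to the nearest tumor above 0.625 of the whole range (Dixon's 95% critical value). Chance gives about 1 in 20 groups, and 7 of the 48 measures had such a tumor. For the detected Wwtr1 probe set, Tumor 5 was lowest with 6.02, against 7.78 in the next tumor and 8.26 in the highest, a gap share of 0.784. For the Prrx1 probe set 1425526_a_at, Tumor 1 was highest with 6.28, against 5.76 in the next (0.631), and this probe set was below the detection limit in all tumors. The mean of the other transition factors was highest in Tumor 1 (0.08, next 0.01, share 0.695). Over the 5 of these genes that were detected, the mean in Tumor 1 was -0.08, so that the high value came from the 4 genes undetected in all tumors. In Tumor 2 the AP-1 mean (0.37, next -0.10, share 0.678) and the immediate early and stress mean (0.67, next -0.21, share 0.725) were highest. In Tumor 6 the adrenal cortex mean (0.84, next -0.02, share 0.817) and the hepatocyte mean (4.95, next -0.41, share 0.915) were highest. Their part in the levels of the members was not tested.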

How the results depend on the processing

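In all 14 alternatives of the site comparison, none of the members was called, with adjusted p-values of 0.148 or more in limma. The 3 called genes became 1 with genes above the receptor-based limit in at least 2 tumors and 6 with the mean of all probe sets of a gene. With a tumor left out, the count ran from 2 to 954. It was 11 without Tumor 7 and 954 without Tumor 8, when Tumor 7 was the lone ganglion tumor and was assumed to vary like the others. Differences that changed sign were those of Yap1 (0.02 over all tumors, -0.08 without Tumor 2, -0.02 without Tumor 4, -0.08 without Tumor 5 and -0.47 without Tumor 8), Cd44 (0.31 without Tumor 7), Axl (0.63 without Tumor 7) and Wwtr1 (-0.43 without Tumor 8). With a tumor left out, they ran from -0.47 to 0.51 for Yap1, -1.39 to 0.31 for Cd44, -1.51 to 0.63 for Axl and -0.43 to 1.16 for Wwtr1. Without a change of sign, the difference moved by over 1.5 times in several other cases. Among them were Snai2 without Tumor 1 (-0.007) and, without Tumor 7, Fosl2 (0.51), Twist1 (0.15) and Snai2 (-0.42). Without Tumor 8 they included Fosl2 (2.24), Twist1 (2.29), Prrx1 (0.52) and Snai2 (-0.12). With the mean of all probe sets they included Prrx1 (0.18), Fosl2 (0.70), Cd44 (-0.18) and Axl (-0.21). The 2 members detected in all tumors became 9 with log2 5 as the limit and 0 with the mean of all probe sets, which averages in undetected probe sets. The 2 relations of Wwtr1 with marker lists became 0 to 2 with a tumor left out: 0 without Tumor 4, 5 or 8, and 1, that with macrophage markers, without Tumor 7. The r stayed between 0.85 and 0.98 for fibroblast markers. No paired analysis was possible because the labels do not name the mouse behind each tumor.

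Precision is limited by 2 ganglion tumors that differ from each other, by members near the detection limit, and by second probe sets that follow the first weakly for Axl, Fosl2, Yap1 and Fn1 (r of 0.09 to 0.37).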
